A study of Mus musculus with 8 samples.

Results

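The 47 genes described here encode proteins of the lysosome and of autophagy, and they were taken by name from a list that covers 3 transcription factors of the TFEB family, 8 cathepsins, 8 glycosidases, 7 lipid enzymes and other proteins of the lysosomal lumen, 7 proteins of the lysosomal membrane and its proton pump, and 14 autophagy genes. All 47 were measured, each by the brightest transcript cluster (the probes that stand for 1 transcript unit on the array) that carried its symbol alone, out of 35556 clusters that covered 19938 such genes. The lysosome is an acidic organelle in which cathepsins cut proteins, glycosidases take sugars off glycoproteins and glycolipids, and lipases and ceramidases break down lipids. Autophagy delivers cytoplasm and organelles to it: the ULK kinases start the process, the ATG conjugation proteins attach LC3 and GABARAP proteins to the growing membrane, and receptors bring in the cargo. TFEB, TFE3 and MITF are related factors that bind short E-box sequences in the promoters of lysosomal genes and move to the nucleus when nutrients or mTORC1 activity are low.

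Gene expression was measured in Neuro2a, a mouse neuroblastoma cell line, in 4 cultures of the anchorage dependent (AD) phenotype and 4 of the anchorage independent (AI) phenotype, with 1 Affymetrix array per culture. AD cells grew attached in medium with 10% fetal bovine serum. AI cells grew as floating spheres in serum-free NeuroCult medium with EGF at 20 ng/ml, bFGF at 10 ng/ml and heparin at 2 µg/ml. Attachment and medium therefore changed together and cannot be told apart. The series design calls the cultures independent and the sample labels name biological replicates, while the methods speak of replicate hybridizations. The p-values set each difference against the spread between these arrays. That spread covers differences between cultures only if each array came from its own culture. All ratios are AD minus AI on the log2 scale, so that a negative ratio means a lower signal in AD cells.

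None of the 47 genes met both an adjusted p under 0.05 (limma, Benjamini-Hochberg over all clusters) and a change of 1.5-fold or more, the criteria for a call, where 2.53% of all clusters were called lower and 1.39% higher in AD cells. At any fold, 8 of the 47 fell in AD cells, which is 17.0% of them, and 0 rose (1, Tax1bp1, by analysis of variance without moderation). At this threshold 9.62% of all clusters fell and 8.5% rose. Among the 11218 genes above the median of at least 1 array 17.6% fell and 18.3% rose. The share of falling members was close to that of these genes, while 0 of the 47 rose. The 47 include 3 genes below the median of every array, which the 11218 leave out. The 8 genes that fell were Lipa, Ulk1, Gabarapl1, Naglu, Gaa, Smpd1, Atp6ap1 and Psap, with ratios between -0.52 and -0.18. An unadjusted p under 0.05 was met by 14 lower and 2 higher members (15.4% and 14.6% of all clusters). The AD and AI arrays did not overlap for 14 members, 10 lower (11.5% of all clusters) and 4 higher (10.6%). The median ratio of the 47 was -0.06, with 30 negative and 17 positive. It was -0.0008 over all clusters and 0.0215 over the 11218 genes above the median of at least 1 array. In such bulk samples, fewer cells with a transcript and less of it per cell cannot be told apart.

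The array medians were slightly lower in AD cells, between 5.82 and 5.92, than in AI cells, between 5.92 and 5.99. The median ratio over all clusters was -0.0008, so the difference lay in the array medians and not in the typical cluster. Subtracting the median of each array (median centring) adds 0.0765 to every ratio. The split of all clusters then moved to 6.23% lower and 12.61% higher, and Lipa and Ulk1 were the 2 members that passed. The median over the 47 genes was then 0.0137, with 20 negative and 27 positive ratios, against 0.0757 over all clusters. Because every ratio shifts by the same amount, centring cannot change the gap between these medians. With quantile normalization 9 members fell, where 9.53% of all clusters fell and 10.37% rose. Without AD replicate 3, AI replicate 2 or AI replicate 3, 5 members fell. For 45 of the 47, the 95% interval of the ratio lay within 1.5-fold in either direction. The exceptions were Lipa and Ulk1, whose intervals reached past 1.5-fold lower.

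**Figure D1:**
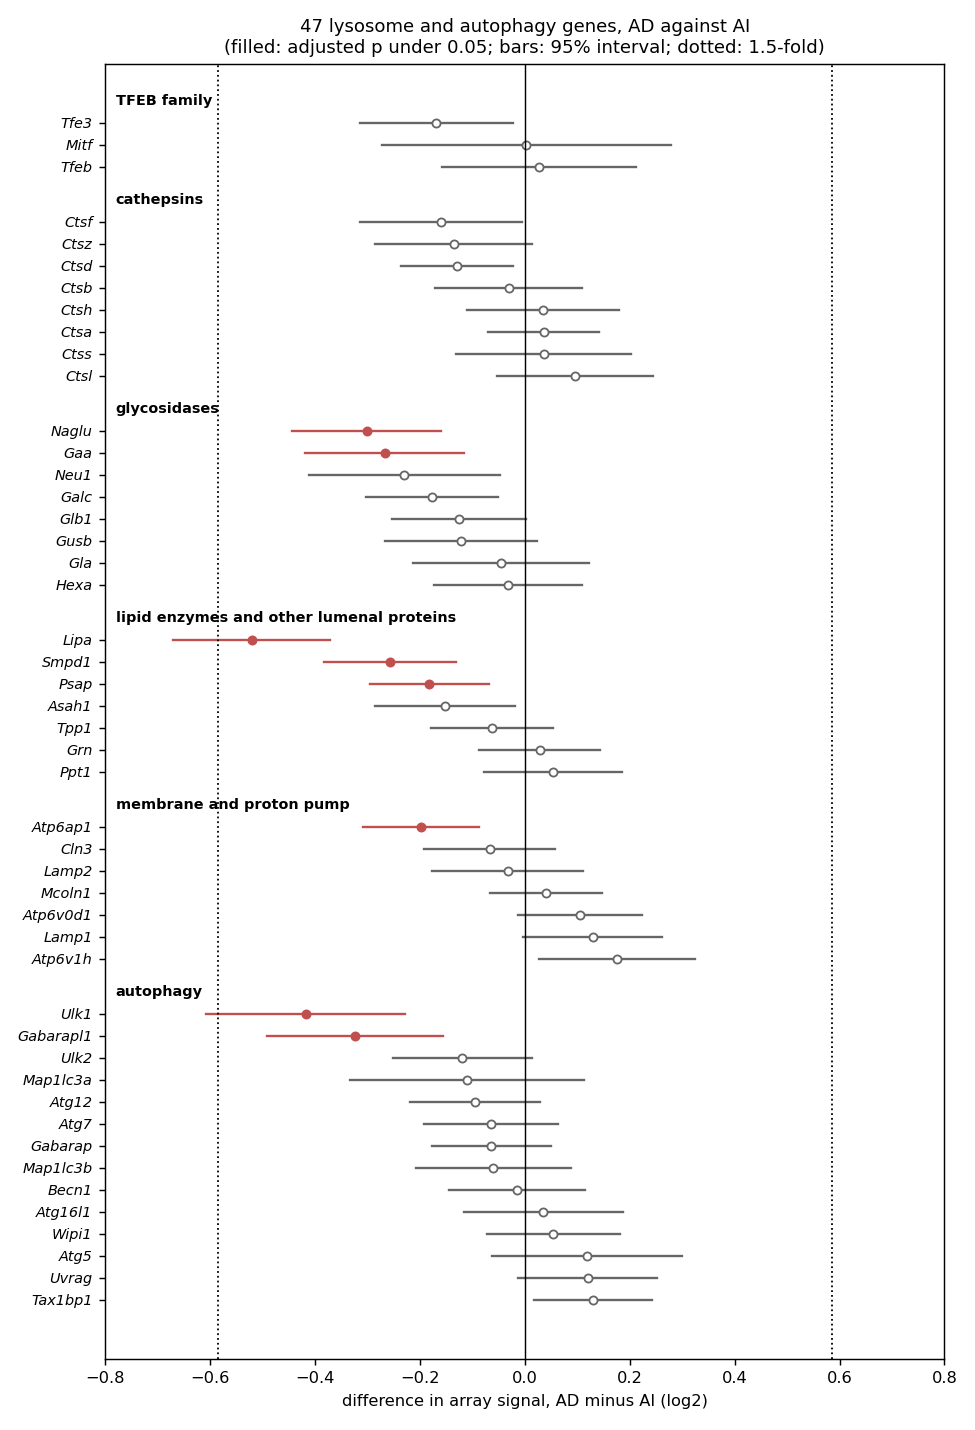
Ratio of array signal, AD minus AI on the log2 scale, for each of the 47 genes by class, with 95% intervals as bars, filled red points for an adjusted p under 0.05 and dotted lines at 1.5-fold. The 8 filled points all lie left of zero, and no point lies beyond a dotted line.

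The factors of the TFEB family did not pass the test on all 8 arrays. Tfeb had a signal of 7.23, 7.51, 7.39 and 7.13 on the AD arrays, against 7.28, 7.32, 7.27 and 7.29 on the AI arrays, so the AD arrays lay on both sides of the AI arrays. Its ratio was 0.03 ± 0.08 (SE, n = 4 each; adjusted p = 0.874, limma), with a 95% interval from -0.16 to 0.21, and without AD replicate 2 it was -0.04. Mitf, the factor of melanocytes and osteoclasts in the same family, averaged 7.17 ± 0.27 in AD cells and 7.17 ± 0.09 in AI cells (SD, n = 4 each), with an interval from -0.27 to 0.28. A dimmer Mitf cluster had a ratio of 0.24 (adjusted p = 0.0358, limma), so the clusters of this gene disagree. Tfe3 had 9.11, 9.24, 9.20 and 9.33 on the AD arrays, against 9.37, 9.47, 9.43 and 9.29 on the AI arrays, a ratio of -0.17 ± 0.06 (SE, n = 4 each; adjusted p = 0.109, limma). AD replicate 4 lay above AI replicate 4, and the other AD arrays lay below the AI arrays. Tfe3 passed without AD replicate 4 (ratio -0.20, adjusted p = 0.0459, limma) and with array weights (adjusted p = 0.0327). AD replicate 4 had the lowest of these weights, 0.35, where the other arrays had 0.77 to 1.76.

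Because these factors bind E-boxes, the promoters of the members were searched on both strands for CACGTG and for the longer TCACGTG, which contains it and whose reverse complement is CACGTGA. RefSeq promoter windows of 300 bases (250 before to 50 after the start, build GRCm38.p6) matched 39 of the 47 genes. A gene counted as holding a motif if any of its windows held it. Of the 39 genes 14 (35.9%) held CACGTG, against 8.09% of 27025 genes with a window. TCACGTG was held by 11 (28.2%), against 4.29% of the 27025. Of these 11 holders 2 fell in AD cells, Gaa and Naglu, and of the 28 genes without it 6 fell. The median ratio was -0.065 among the 11 holders and -0.0633 among the other 28. The sequences below show sites in the promoters of both falling holders, and in those of Ctsd, Glb1, Gla and Mcoln1, which hold the same letters and did not pass the test. Capitals mark 1 match per stretch, whose first base lies 141, 74, 99, 49, 195 and 46 bases before the start in the order given. The Mcoln1 stretch also holds a TCACGTG 72 bases before the start, which is left in lower case.
Gaa, chr11:119267795-119267855, plus strand: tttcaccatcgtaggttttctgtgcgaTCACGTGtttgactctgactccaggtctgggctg
Naglu, chr11:101069993-101070053, plus strand: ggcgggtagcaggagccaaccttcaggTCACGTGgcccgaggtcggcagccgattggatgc
Ctsd, chr7:142387892-142387953, minus strand: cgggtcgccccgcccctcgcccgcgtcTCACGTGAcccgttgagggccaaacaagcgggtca
Glb1, chr9:114401002-114401062, plus strand: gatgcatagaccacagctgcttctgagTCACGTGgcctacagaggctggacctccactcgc
Gla, chrX:134601166-134601227, minus strand: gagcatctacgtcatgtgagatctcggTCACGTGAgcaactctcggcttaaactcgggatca
Mcoln1, chr8:3500446-3500507, plus strand: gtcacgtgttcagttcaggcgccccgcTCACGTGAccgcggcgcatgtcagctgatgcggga

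None of the 8 cathepsins, the main proteases of the lysosome, passed the test in the fit as designed, and their ratios lay between -0.16 and 0.10. Ctsd, an aspartic protease, had 11.58, 11.64, 11.58 and 11.63 on the AD arrays, against 11.71, 11.77, 11.75 and 11.72 on the AI arrays. The arrays did not overlap, but the ratio of -0.13 ± 0.05 (SE, n = 4 each) had an adjusted p of 0.0968 (limma). Ctsd passed under 3 alternatives, with adjusted p-values of 0.0165 by analysis of variance without moderation, 0.0197 with trend and robust variance and 0.0475 with array weights. Ctsb and Ctsl, which are cysteine proteases, had ratios of -0.03 and 0.10 (adjusted p = 0.799 and 0.384, limma), with AD and AI arrays that overlapped. Ctsf, Ctsh and Ctss were below the median of every array, at a signal where a difference would be hard to detect. Ctss is abundant in macrophages and other antigen presenting cells.

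The glycosidases had negative ratios in 8 of 8 genes (6 of 8 after median centring), with a median of -0.15 against -0.0008 over all clusters. Of the 8, 2 fell, which is 25.0%, beside 17.6% of genes above the median of at least 1 array. Naglu removes N-acetylglucosamine from heparan sulfate. It had 9.45, 9.55, 9.43 and 9.53 on the AD arrays, against 9.90, 9.81, 9.81 and 9.67 on the AI arrays, and all AD arrays lay below all AI arrays. It fell by 0.30 ± 0.06 on the log2 scale, 1.23-fold (SE, n = 4 each; adjusted p = 0.0101, limma), and missed the threshold after median centring (adjusted p = 0.0676). Gaa, the acid glucosidase that degrades glycogen, had 10.61, 10.88, 10.76 and 10.76 on the AD arrays, against 10.96, 11.08, 11.07 and 10.97 on the AI arrays, again without overlap. Its ratio was -0.27 ± 0.07, 1.20-fold (SE, n = 4 each; adjusted p = 0.0236, limma), and it missed the threshold after median centring (adjusted p = 0.122) and without AD replicate 1 or 3 or AI replicate 2 or 3.

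The other 6 glycosidases had ratios from -0.23 to -0.03. Neu1, the lysosomal sialidase, had the most negative of them at -0.23 ± 0.08 (SE, n = 4 each; adjusted p = 0.0832, limma), and it passed without AD replicate 2 (adjusted p = 0.0136), with array weights (0.0477) and with named clusters only (0.0386). Galc cleaves galactosylceramide, and its arrays did not overlap, with 8.002, 8.06, 7.91 and 7.93 in AD cells against 8.24, 8.14, 8.13 and 8.11 in AI cells, but its adjusted p was 0.0584 (limma). Galc passed under 5 of the 17 alternative fits, with adjusted p-values between 0.0271 and 0.0467. Glb1, the beta-galactosidase used as a senescence marker, and Gusb, the beta-glucuronidase, had ratios of -0.13 and -0.12. Hexa and Gla, which act on gangliosides and on globotriaosylceramide, were at -0.03 and -0.05, and for both the arrays overlapped.

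Among the lipid enzymes and other lumenal proteins 3 of 7 fell, and the class median was -0.15. The 3 are 42.9% of the class, beside 17.6% of genes above the median of at least 1 array. Lipa, the acid lipase that frees cholesterol and fatty acids from esters taken up with lipoproteins, had the largest change of the 47. Its signal was 7.92, 8.07, 7.88 and 8.12 on the AD arrays, against 8.59, 8.51, 8.48 and 8.50 on the AI arrays, and the highest AD array lay well below the lowest AI array. Lipa fell by 0.52 ± 0.07 on the log2 scale, 1.44-fold (SE, n = 4 each; adjusted p = 0.000844, limma), and passed the test under each of the 17 alternative fits. Smpd1, the acid sphingomyelinase, had 10.50, 10.57, 10.57 and 10.68 on the AD arrays, against 10.87, 10.88, 10.83 and 10.78 on the AI arrays. The groups did not overlap, and the ratio was -0.26 ± 0.06, 1.19-fold (SE, n = 4 each; adjusted p = 0.0123, limma), with an adjusted p of 0.0817 after median centring.

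Psap encodes the precursor of the saposins, which help hydrolases reach glycosphingolipids. It had 11.99, 12.06, 12.04 and 12.13 on the AD arrays, against 12.24, 12.25, 12.26 and 12.20 on the AI arrays, a difference of -0.18 ± 0.05, 1.13-fold (SE, n = 4 each; adjusted p = 0.0354, limma). This was the smallest of the 8 changes and the least stable, since it passed under 7 of the 17 alternative fits and was lost when any array other than AD replicate 4 was left out. The acid ceramidase gene Asah1 was at -0.15 (adjusted p = 0.117, limma) and passed with quantile normalization (adjusted p = 0.0491). Tpp1 and Ppt1, which are mutated in neuronal ceroid lipofuscinoses, and Grn, which encodes progranulin, had ratios of -0.06, 0.05 and 0.03 with overlapping arrays.

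**Figure D2:**
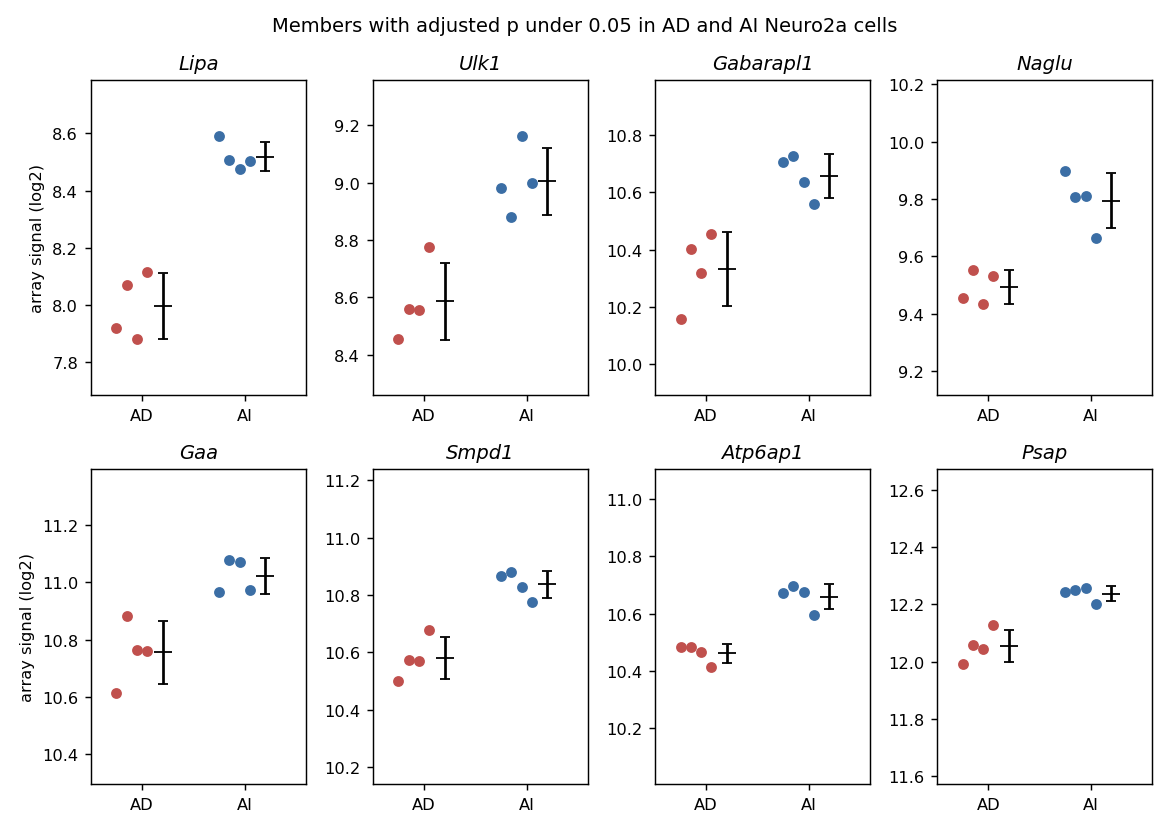
Array signal (log2) of the 8 genes with an adjusted p under 0.05, with 1 point per array for 4 AD and 4 AI arrays and black bars for mean and SD, each panel spanning the same height. In every panel all AD points lie below all AI points, and the gap is widest for Lipa.

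The class of the lysosomal membrane and the proton pump was mixed, with 3 negative and 4 positive ratios. Its median ratio was 0.04 (0.12 after median centring, where all clusters had 0.0757). In this class 1 gene fell, which is 14.3%, beside 17.6% of genes above the median of at least 1 array. Atp6ap1 is an accessory subunit of the V-ATPase, the pump that acidifies the lysosome. It had 10.48, 10.48, 10.47 and 10.41 on the AD arrays, against 10.67, 10.70, 10.67 and 10.60 on the AI arrays, without overlap. It fell by 0.20 ± 0.05 on the log2 scale, 1.15-fold (SE, n = 4 each; adjusted p = 0.0224, limma), but missed the threshold after median centring (adjusted p = 0.208) and without AD replicate 3 or AI replicate 1, 2 or 3.

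The members also hold 2 subunits of the pump itself, which had positive ratios that did not pass the test. Atp6v1h, of the cytosolic V1 sector, had 9.77, 9.91, 9.74 and 9.63 on the AD arrays, against 9.63, 9.59, 9.52 and 9.62 on the AI arrays, and Atp6v0d1, of the membrane V0 sector, had 11.04, 11.16, 11.12 and 11.03 in AD cells against 11.02, 10.996, 10.94 and 10.97 in AI cells. For both genes the lowest AD array was above the highest AI array by a small margin. Their ratios of 0.18 and 0.10 had adjusted p-values of 0.104 and 0.220 (limma), and Atp6v1h passed without AD replicate 4 (adjusted p = 0.0316). Lamp1, a main glycoprotein of the lysosomal membrane, was also without overlap, at 11.02, 11.24, 11.12 and 11.06 in AD cells against 10.998, 10.99, 10.97 and 10.98 in AI cells (ratio 0.13, adjusted p = 0.175, limma). Lamp2 and Cln3 had ratios of -0.03 and -0.07, and Mcoln1, the calcium channel of the lysosome, of 0.04.

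Of the 14 autophagy genes 2 fell, which is 14.3%, beside 17.6% of genes above the median of at least 1 array. The rest lay between -0.12 and 0.13, and the class median was -0.06, against -0.0008 over all clusters. After median centring the class median was 0.0145, against 0.0757 over all clusters. Ulk1, the kinase that starts autophagosome formation, had 8.45, 8.56, 8.56 and 8.77 on the AD arrays, against 8.98, 8.88, 9.16 and 8.999 on the AI arrays. AD replicate 4 was the highest AD array and still below every AI array. Ulk1 fell by 0.42 ± 0.08 on the log2 scale, 1.34-fold (SE, n = 4 each; adjusted p = 0.00845, limma), and passed under each of the 17 alternative fits. Its paralog Ulk2 had a ratio of -0.12 (adjusted p = 0.211, limma), and the difference between the paralogs was not tested.

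Gabarapl1 belongs to the GABARAP proteins, which sit on the autophagosome membrane. It had 10.16, 10.40, 10.32 and 10.45 on the AD arrays, against 10.71, 10.73, 10.64 and 10.56 on the AI arrays, without overlap. It fell by 0.32 ± 0.07 on the log2 scale, 1.25-fold (SE, n = 4 each; adjusted p = 0.0159, limma), with an adjusted p of 0.0711 after median centring. The related Gabarap, Map1lc3a and Map1lc3b had ratios of -0.06, -0.11 and -0.06, with adjusted p-values between 0.452 and 0.611 (limma).

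The conjugation genes Atg5, Atg7, Atg12 and Atg16l1 had ratios of 0.12, -0.07, -0.09 and 0.04, none of which passed. Becn1, of the lipid kinase complex that marks the growing membrane, was at -0.01, and Uvrag, which joins the same complex, at 0.12. Wipi1, which binds the lipid that this complex makes, was at 0.05. Tax1bp1, a cargo receptor, had 9.65, 9.70, 9.73 and 9.64 on the AD arrays, against 9.59, 9.58, 9.51 and 9.52 on the AI arrays. Its arrays did not overlap, and its ratio of 0.13 had an adjusted p of 0.112 (limma).

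**Figure D3:**
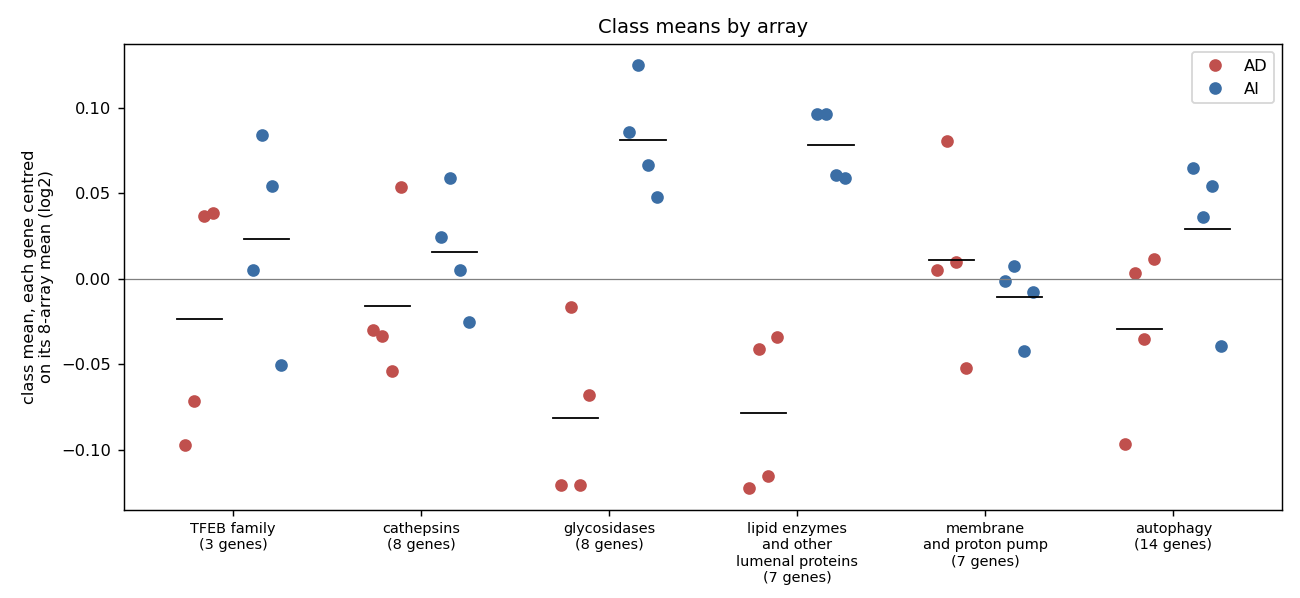
Mean of each class on each array after every gene was centred on its mean over the 8 arrays (log2), with 1 point per array and black lines for the mean of the 4 AD or 4 AI arrays. The glycosidases (AD -0.12 to -0.02, AI 0.05 to 0.12) and the lipid enzymes and other lumenal proteins (AD -0.12 to -0.03, AI 0.06 to 0.10) do not overlap, and the other 4 classes do.

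When each gene was centred on its mean over the 8 arrays and averaged by class, the glycosidases lay between -0.12 and -0.02 on the AD arrays and between 0.05 and 0.12 on the AI arrays. The lipid enzymes and other lumenal proteins lay between -0.12 and -0.03 on the AD arrays and between 0.06 and 0.10 on the AI arrays. Both classes thus separated the phenotypes without overlap, while the TFEB family, the cathepsins, the membrane and pump genes and the autophagy genes overlapped. After median centring these 2 classes overlapped too, with glycosidases between -0.10 and 0.08 in AD cells and between -0.01 and 0.12 in AI cells.

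The same processes hold further genes that are not among the 47, and 115 of 123 such genes were measured. Of these, 25 fell and 10 rose in AD cells at any fold, which is 21.7% and 8.7%, against 9.62% and 8.5% of all clusters and 17.6% and 18.3% of the genes above the median of at least 1 array. At a fold of at least 1.5, 3 were called lower and 0 higher, where 2.53% and 1.39% of all clusters were called. After median centring 16 fell and 18 rose, and the split of all clusters moved the same way, to 6.23% lower and 12.61% higher. The number that rose was also 6 without AD replicate 2 and 16 without AD replicate 4, the array with the lowest array weight (0.35).

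Of 21 other hydrolases 8 fell and 1 rose, 38.1% and 4.76%, beside the 17.6% and 18.3% of genes above the median of at least 1 array (6 and 2 hydrolases after median centring). Idua acts on heparan and dermatan sulfate. It had 7.72, 7.73, 7.63 and 7.88 on the AD arrays, against 8.20, 8.31, 8.28 and 8.29 on the AI arrays, a fall of 1.44-fold (adjusted p = 0.000628, limma). The sulfatases Arsa and Galns fell by 0.53 and 0.52 on the log2 scale. Ids, the iduronate sulfatase of the same degradation pathway as Idua, rose by 0.24 (adjusted p = 0.0128, limma), at 8.16, 8.29, 8.15 and 8.17 in AD cells against 7.96, 7.92, 7.996 and 7.94 in AI cells.

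Hydrolases reach the lysosome through a mannose 6-phosphate tag, and a receptor for that tag, Igf2r, was called lower. Its signal was 6.16, 6.10, 6.13 and 5.96 on the AD arrays, against 6.86, 6.72, 6.67 and 6.82 on the AI arrays, which is 1.60-fold lower in AD cells (ratio -0.68 ± 0.07, SE, n = 4 each; adjusted p = 0.000202, limma). Nagpa, which uncovers the tag, rose by 0.41 on the log2 scale (adjusted p = 0.00407, limma). The remaining 8 measured sorting genes did not pass. Thus 10.0% of the list fell and 10.0% rose, beside 17.6% and 18.3% of genes above the median of at least 1 array. After median centring 1 sorting gene fell and 2 rose.

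Among 15 other V-ATPase subunits 3 fell and 2 rose, 20.0% and 13.3%, beside 17.6% and 18.3% of genes above the median of at least 1 array. After median centring these counts were 2 and 4. Atp6v1g2, the form of the G subunit found in neurons, had the largest change at -0.52 (6.60, 6.40, 6.63 and 6.76 in AD cells against 7.04, 7.09, 7.23 and 7.13 in AI cells; adjusted p = 0.00218, limma). Atp6v1f and Atp6v0e2 had ratios of -0.37 and -0.29, while Atp6v0a2 and Atp6v1c1 rose by 0.26 each. These 4 were close to the threshold: each missed it by analysis of variance without moderation (adjusted p between 0.0513 and 0.0634) and, with 1 array left out, Atp6v0a2 and Atp6v1c1 missed it without AD replicate 1, 2 or 3 or AI replicate 2, 3 or 4, Atp6v1f without AD replicate 1 or 3 or AI replicate 2 or 3, and Atp6v0e2 without AD replicate 1, 2 or 3 or AI replicate 1 or 2. Among 15 other membrane proteins Laptm4b fell by 0.29, and Slc17a5, the sialic acid exporter, and Cd63, a tetraspanin, rose by 0.32 and 0.31. The 1 that fell was 6.67% of the list, and the 2 that rose were 13.3% (0 and 3 after median centring). After median centring Laptm4b and Atp6v0e2 no longer passed. Cd63 missed the threshold by analysis of variance without moderation (adjusted p = 0.0647) and without AD replicate 1, 2 or 3 (0.0582, 0.0735 and 0.0512).

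Of 36 other autophagy genes 10 fell and 2 rose (5 and 4 after median centring). The 10 and 2 are 27.8% and 5.56%, beside 17.6% and 18.3% of genes above the median of at least 1 array. Trp53inp1, a p53 target that binds LC3 proteins, had the largest change of these lists. Its signal was 7.20, 7.45, 7.54 and 7.98 on the AD arrays, against 8.63, 8.74, 8.85 and 8.68 on the AI arrays, so AD replicate 4 was the nearest to the AI arrays. It was 2.27-fold lower in AD cells (ratio -1.18 ± 0.14, SE, n = 4 each; adjusted p = 0.000637, limma). The cargo receptor Sqstm1 fell by 0.25 (adjusted p = 0.0160, limma), which did not hold after median centring (adjusted p = 0.0889) or without AD replicate 3 (0.0509) or AI replicate 3 (0.0531). Atg3, the conjugating enzyme for LC3 proteins, rose by 0.49, at 9.07, 9.09, 9.10 and 8.90 in AD cells against 8.44, 8.64, 8.52 and 8.60 in AI cells (adjusted p = 0.00144, limma), and Atg4c, a protease that trims them, rose by 0.30 but missed the threshold without AD replicate 2 or AI replicate 1 or 3 (adjusted p between 0.0501 and 0.0533).

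The TFEB family is held in the cytoplasm by mTORC1, which docks on the lysosome through the Rag GTPases and the Ragulator complex. Of 18 genes listed for this control 2 fell and 2 rose, 11.1% each, beside 17.6% and 18.3% of genes above the median of at least 1 array. After median centring these counts were 2 and 3. The list also holds genes outside this docking, among them the transcription factor genes Zkscan3 and Tfec. The 2 that fell were Rragd and Zkscan3, the latter by 0.37 on the log2 scale (adjusted p = 0.00315, limma). Rragd, a Rag GTPase gene, was called lower at 9.03, 9.08, 9.02 and 8.75 on the AD arrays, against 9.66, 9.50, 9.54 and 9.57 on the AI arrays (ratio -0.60 ± 0.08, SE, n = 4 each; adjusted p = 0.000998, limma). At 1.51-fold it lay just past the fold threshold, and it was under it after median centring (ratio -0.52), with array weights (-0.57) and without AD replicate 4 (-0.52) or AI replicate 1 (-0.57). Lamtor1, the Ragulator subunit that anchors the complex, rose by 0.52 (8.13, 8.43, 8.12 and 8.02 in AD cells against 7.74, 7.73, 7.58 and 7.55 in AI cells; adjusted p = 0.00455, limma), and Fnip1, a partner of folliculin, rose by 0.43.

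**Figure D4:**
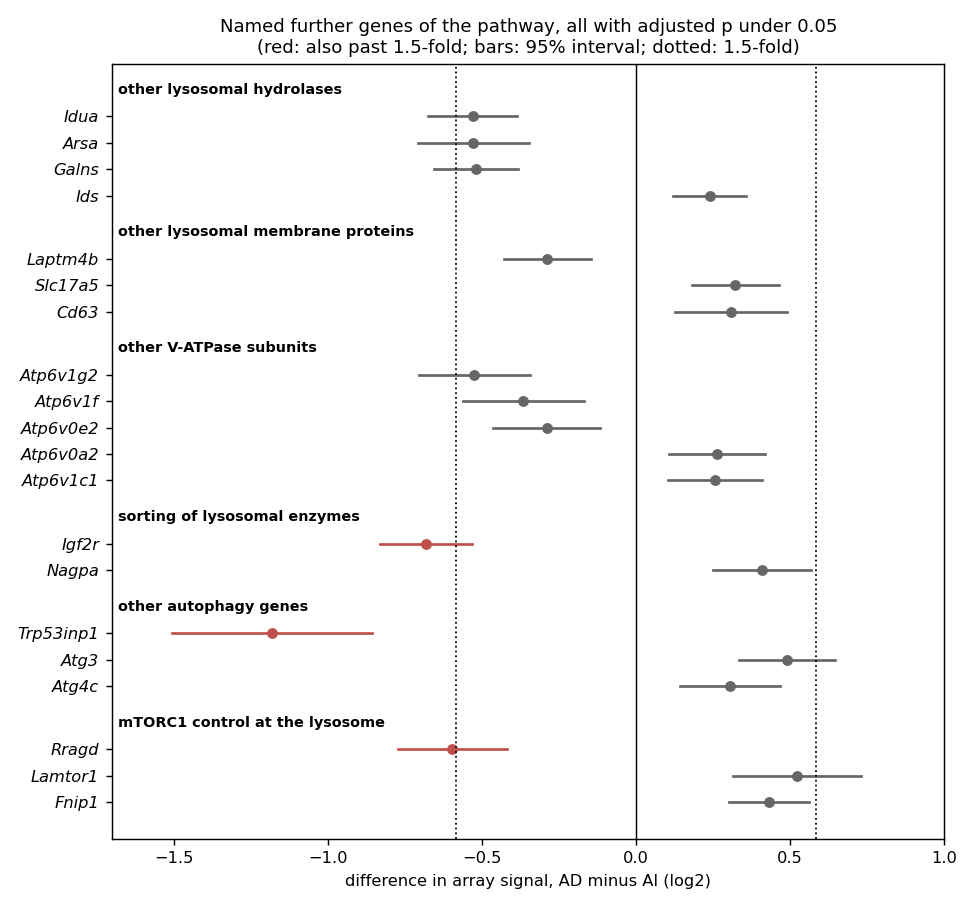
Ratio of array signal, AD minus AI on the log2 scale, for up to 3 genes per direction from each other list of the pathway. All have an adjusted p under 0.05, with 95% intervals as bars and dotted lines at 1.5-fold. Trp53inp1, Igf2r and Rragd, in red, lie beyond 1.5-fold lower. Genes were chosen per direction, so points on both sides of zero follow from the choice. Of the other autophagy genes 10 fell and 2 rose, and of those that fell only Trp53inp1 is shown.

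The identity of the cells was checked with marker lists. Of 9 macrophage markers measured, 9 were below the median of every array, with list means between 4.96 and 5.12 in AD cells and between 4.99 and 5.08 in AI cells, and none passed the test. Of 7 fibroblast markers 5 were below it, with list means between 5.26 and 5.37 in AD cells and between 5.24 and 5.30 in AI cells. The 9 measured sympathoadrenal markers were above it on at least 1 array, and their list mean was 9.48 to 9.68 in AD cells and 9.01 to 9.09 in AI cells, with 5 genes higher, Dbh by 3.01 among them, and 2 lower in AD cells. The part of this difference in the lysosomal and autophagy values was not tested.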

How the data were processed

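RNA from 4 AD and 4 AI cultures of Neuro2a cells was hybridized by the authors to Affymetrix mouse gene arrays, 1 per culture. The deposited values are log2 signals per transcript cluster, which the authors made with GCRMA background correction and normalization. The submitters' processing notes name Partek 6.5 and GCRMA, and the genome build of the array is not given in the sources used here. They entered the fit without further scaling. There are no counts, and precision depends on the number of arrays and on the spread of each gene between them. The standard errors of the members' ratios ran from 0.05 to 0.12.

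Of 35556 clusters, 21789 carried a single gene symbol in GEO's platform annotation, 1621 several and 12146 none, and the brightest single-symbol cluster stood for a gene. All 47 symbols matched RefSeq. AD and AI arrays were compared with limma 3.58.1 (lmFit, eBayes, no covariate) in R 4.3.3, with Benjamini-Hochberg adjustment over all clusters. Tables and plots used Python 3.11.15, pandas 2.3.3, numpy 2.4.6, scipy 1.17.1 and matplotlib 3.10.9. On simulated data with 200 changed clusters the fit called 96.0% of those changed 1.75-fold, 98.0% at 2-fold, and 3 unchanged clusters. The simulated noise was normal and independent between arrays, with the spread of each cluster drawn towards the median spread. No change under 1.75-fold was simulated, so these rates do not cover the changes of the members, which were at most 1.44-fold. The smallest exact two-sided permutation p for 4 against 4 arrays is 0.0286. Promoter sequences are from RefSeq (GRCm38.p6).

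Every member may be named. From the other lists, up to 3 genes per direction with the largest change were named among those called, or among those passing at any fold where none was called. Ctsb, Ctsd and other members without a call, and Sqstm1, were named for their roles. Zkscan3 and Tfec were named to describe their list. Members, classes and lists were chosen with earlier results of these data known. The class of lipid enzymes and other lumenal proteins was added for members outside the other 5 classes.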

Additional observations from a re-analysis of the deposited data

Results flagged for a closer look

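Of 134 groups of 4 arrays examined, 4 held an array that stood apart from the other arrays of its group, where chance gives about 1 in 20, or 6.7. Ctsf was at 5.81 on AI replicate 2, against 5.60 to 5.63 on the other AI arrays. Cd63 was at 9.38 on AI replicate 3, against 9.66 to 9.69 on the other AI arrays. Atp6v0e2 was at 9.64 on AD replicate 3, against 9.83 to 9.85 on the other AD arrays. Atg3 was at 8.90 on AD replicate 4, against 9.07 to 9.10 on the other AD arrays.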

How the results depend on the processing

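Of the 8 falling members, Lipa and Ulk1 passed under all 17 alternative fits, Naglu under 16, Smpd1 and Gabarapl1 under 15, Gaa under 12, Atp6ap1 under 11 and Psap under 7. The number of members that fell was 2 after median centring, 2 at an adjusted p under 0.01 and 4 with a replicate block. It was between 5 and 9 when 1 array was left out, with 5 without AD replicate 3, AI replicate 2 or AI replicate 3. It was 12 with array weights, and 10 by analysis of variance without moderation or with named clusters only. With quantile normalization, with dim clusters left out, or with trend and robust variance it was 9. The replicate numbers did not pair the cultures: arrays of the same number deviated from their group means with correlations of -0.11, 0.08, 0.0048 and -0.17, and no array was closest to its own number. The number of members that rose was 1 by analysis of variance without moderation (Tax1bp1), 1 with array weights (Atp6v1h) and 0 to 1 with 1 array left out. At a fold of at least 1.3, 2 members were called lower, Lipa and Ulk1.

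Median centring adds 0.0765 to every ratio, so its sign turns follow from a shift that all clusters share, whose median became 0.0757. The median ratio was then 0.0137 over all members, 0.0794 for the TFEB family, 0.0786 for cathepsins, -0.0745 for glycosidases, -0.0754 for lipid enzymes and other lumenal proteins, 0.117 for membrane and proton pump and 0.0145 for autophagy. With 1 array left out, the TFEB family lay between -0.0862 and 0.0267. Of the other genes of the pathway, 16 fell and 18 rose after median centring (6.23% and 12.61% of all clusters), with 1 called higher (Lamtor1). The number that rose was 18 with array weights, 16 with named clusters only, an alternative chosen after seeing the data, and between 6 and 16 with 1 array left out (6 without AD replicate 2, 16 without AD replicate 4).

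After median centring 20 of the 47 ratios were negative, against 30 before. The sign turned for Lamp2 (0.0436), Ctsb (0.0455), Becn1 (0.0624) and Map1lc3b (0.0164), and also for Hexa, Gla, Tpp1, Cln3, Atg7 and Gabarap. With array weights it turned for Mitf (-0.0047). With 1 array left out, the ratio lay between -0.0387 and 0.0897 for Tfeb, -0.0862 and 0.1229 for Mitf, -0.0711 and 0.0065 for Lamp2, -0.069 and 0.0033 for Ctsb, and -0.0482 and 0.0177 for Becn1. None of these genes passed the test. The cause of the turns other than by centring was not tested. Genes below the array medians, such as Ctsf, Ctsh and Ctss, give weak limits on a change.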
